A study of Mus musculus with 19 samples.

Results

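The genes described here build or switch on motile cilia, and their RNA was measured in perigonadal fat of C57BL/6 mice. Rows of the count tables were taken by symbol: the axonemal dynein heavy chains (Dnah followed by digits), every Dnaic, Rsph and Tekt gene, and Foxj1, Spag6, Spag16, Spag17, Hydin, Rgs22, Ccdc39, Ccdc40, Ccdc108 and Armc4. The rule found 35 genes of 24348 in the files, and all 35 passed the filter on low counts that left 16015 genes for testing. The set was chosen by measured values as well, since it was proposed for the way these genes varied together over the same libraries. Their shared variation is therefore a description, without a test.

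The study examined whole perigonadal adipose tissue in 2 models of weight gain, a 60% high-fat diet (HFD) and Ensure, a liquid nutritional supplement. Mice were sampled fed at peak weight or after 24 hours without food. On HFD there were 4 fed and 4 fasted libraries, and on Ensure 6 fed and 5 fasted ones, 19 in all, each named below by its group and the number in its label. The labels give no age, sex or genotype beyond the strain. They do not tie libraries to individual mice, and the error behind each p-value is only the scatter of these libraries, which may be technical. Libraries held 12823469 to 22552633 counts in genes, and 3 counts corresponded to 0.124 to 0.210 CPM, the usual measure of a gene's counts relative to library depth, scaled between libraries here by the trimmed mean of M-values (TMM). The chi-square per gene between libraries of the same group ran from 6.77 to 272 over 37 pairs. No library was thus a repeat of another in its group within sampling noise, and pairs across groups were not checked. The tissue's own marker Adipoq, the adipocyte hormone adiponectin, stood at 1112 to 4138 CPM in every library.

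A motile cilium is a beating extension of the cell built on an axoneme, a ring of doublet microtubules around a central pair. Outer and inner dynein arms slide the doublets, radial spokes and the central pair pass on the control of the beat, and tektins run along the doublet walls. Foxj1 is the transcription factor that turns on this programme in multiciliated cells, which line airways, brain ventricles, oviducts and the efferent ducts of the testis, together with RFX factors that bind X-box sites. The sperm tail is built on the same plan with some subunits of its own, whereas fat cells carry no motile cilia. Cdh16, a cadherin of epithelia such as kidney tubules, and Prm2, the protamine that packs sperm DNA, are given beside the members throughout as markers of tract epithelium and of sperm cells.

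Promoters were searched for the letters that RFX and forkhead factors are known to bind, since members varied together across libraries. All 35 symbols were matched to RefSeq, and 29 members had a promoter window, from 250 bases before to 50 bases after the start, in GRCm38.p6. The short RFX site GTTGCCA, on either strand, was found in 4 of these 29 members (13.8%), compared with 5.02% of 27025 genes with a window. The forkhead letters TGTTTAC were found on either strand in 2 of 29 (6.90%), compared with 4.05% of all genes. A strict form of the full X-box, GTTNCCNNGGNAAC, which reads the same in reverse on the other strand, was found in 0 of 29, compared with 0.529%. Looser forms, with other arm letters or spacing, were not searched, so the windows are not shown to lack an X-box. The short site was found in Dnah10, Dnah7b, Hydin and Tekt1, and the forkhead letters in Dnah17 and Tekt3. No short site overlapped a forkhead match. The 4 windows below belong to the most abundant member with a match in the inner arm, central pair, tektin and outer arm groups. They are printed 5′ to 3′ along the gene, with the matched letters in capitals.
Dnah10: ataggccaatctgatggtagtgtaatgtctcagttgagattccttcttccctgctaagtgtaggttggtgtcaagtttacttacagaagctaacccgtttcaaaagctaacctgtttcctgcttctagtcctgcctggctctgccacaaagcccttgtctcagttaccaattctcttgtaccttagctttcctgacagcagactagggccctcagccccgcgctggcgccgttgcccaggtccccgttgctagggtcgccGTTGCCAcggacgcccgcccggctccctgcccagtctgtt
Hydin: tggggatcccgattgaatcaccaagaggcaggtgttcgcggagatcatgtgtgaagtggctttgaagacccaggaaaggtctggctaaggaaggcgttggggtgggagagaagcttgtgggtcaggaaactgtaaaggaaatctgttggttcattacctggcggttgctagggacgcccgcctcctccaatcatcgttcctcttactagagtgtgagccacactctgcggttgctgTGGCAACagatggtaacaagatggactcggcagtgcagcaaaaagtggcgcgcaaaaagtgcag
Tekt1: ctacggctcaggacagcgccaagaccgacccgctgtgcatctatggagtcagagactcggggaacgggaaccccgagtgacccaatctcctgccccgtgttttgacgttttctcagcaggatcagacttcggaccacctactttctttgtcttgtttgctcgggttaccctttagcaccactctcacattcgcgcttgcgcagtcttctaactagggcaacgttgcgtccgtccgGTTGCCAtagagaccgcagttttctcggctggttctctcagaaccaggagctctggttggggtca
Dnah17: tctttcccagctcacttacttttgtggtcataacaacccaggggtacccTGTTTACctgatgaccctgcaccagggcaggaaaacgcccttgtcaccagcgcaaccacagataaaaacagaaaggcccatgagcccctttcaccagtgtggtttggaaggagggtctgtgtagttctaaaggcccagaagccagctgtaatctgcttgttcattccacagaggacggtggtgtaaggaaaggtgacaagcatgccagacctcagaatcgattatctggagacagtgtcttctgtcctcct
In GRCm38.p6 these windows lie at chr5:124724835-124725134 on the plus strand (Dnah10), chr8:110266727-110267026 on the plus strand (Hydin), chr11:72361833-72362132 on the minus strand (Tekt1) and chr11:118129170-118129469 on the minus strand (Dnah17). The first base of the match lay 14 bases before the start in Hydin and 15 before it in Tekt1, at base 11 after the start in Dnah10, and 201 bases before the start in Dnah17. A match describes the letters only and is no evidence of binding.

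Foxj1, the master regulator, was high in 5 libraries and low in the other 14, and the 5 were spread over all 4 groups. Among HFD fed libraries it stood at 60.8 CPM in library 21, 4.36 in 22, 0.761 in 25 and 2.65 in 27. Among HFD fasted libraries it stood at 0.355 CPM in 23, 72.3 in 24, 64.8 in 26 and 0.548 in 28. In Ensure fed tissue the lowest of 6 libraries had 0.308 CPM, the median was 2.63 and the highest, library 16, had 50.9. In Ensure fasted tissue it stood at 65.6 CPM in library 2, 8.50 in 5, 0.241 in 7, 0.198 in 8 and 3.65 in 17. Thus libraries 21 (HFD fed), 24 and 26 (HFD fasted), 16 (Ensure fed) and 2 (Ensure fasted) held 50.9 to 72.3 CPM, and the other 14 held at most 12.5 CPM, the value of Ensure fed 1. The ranges of all 4 groups overlapped.

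The summed level of the 35 members followed the same split, at 465 to 931 CPM in the 5 libraries high in Foxj1 and 44.3 to 206 CPM in the other 14. Foxj1 aside, each of these 5 libraries exceeded each of the other 14 in 20 of 34 members, beside 3.07% of all genes tested (491 of 16015). The libraries were picked by their levels of Foxj1 and Cdh16 and the members by how they varied together, so nothing is read from this count. In bulk tissue, fewer cells of a type and less RNA per cell cannot be told apart. Of the members, 24 had a count in all 19 libraries, 32 had a mean of at least 1 CPM, and Dnah7a, Rsph14 and Tekt3 had a mean below it.

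**Figure D1:**
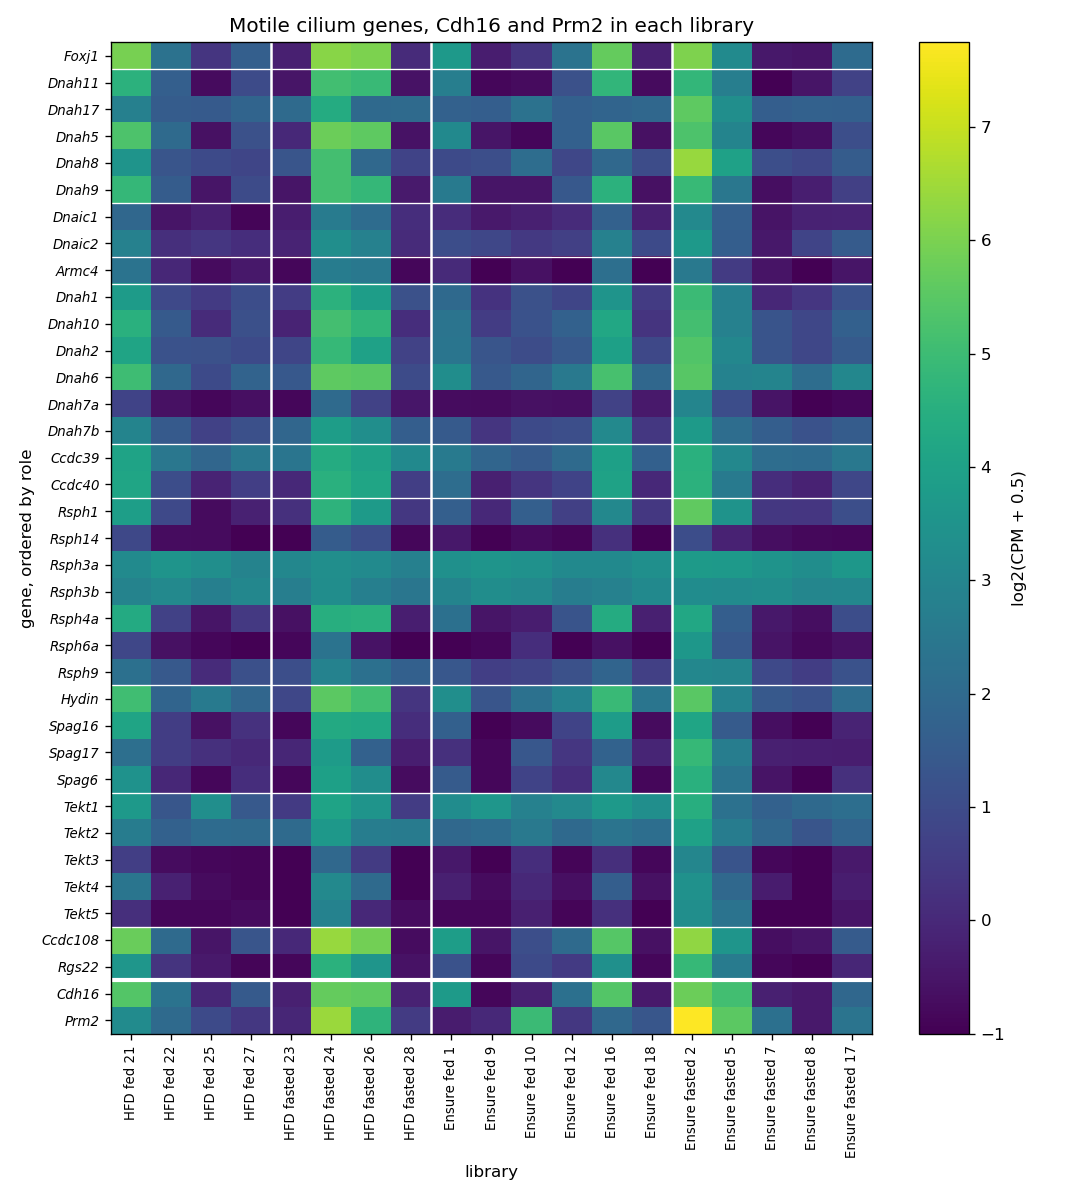
Log2(CPM + 0.5) of the 35 members (rows, ordered by role, white lines between roles) and of Cdh16 and Prm2 (below the thick line) in each of the 19 libraries (columns, white lines between groups). Libraries 21, 24, 26, 16 and 2 are bright in most rows, while Rsph3a and Rsph3b are even across all columns.

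Outer dynein arms carry the heavy chains Dnah5, Dnah9 and Dnah11 in multiciliated cells and Dnah8 and Dnah17 in the sperm tail. Dnah5 stood at 38.6, 54.5, 47.5, 45.3 and 38.8 CPM in libraries 21, 24, 26, 16 and 2, and at most at 8.39 CPM elsewhere, in Ensure fed 1. Dnah9 stood at 27.8, 34.4, 27.8, 24.3 and 29.5 CPM in the same 5 libraries and Dnah11 at 24.0, 33.8, 30.3, 26.4 and 27.4 CPM. All 3 were within a narrow band in the 5 libraries. Elsewhere they reached 8.39, 5.64 and 6.25 CPM at the most, and in Ensure fasted 7 they stood at 0.0602, 0.12 and 0 CPM.

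Dnah8 had another profile. It stood at 84.1 CPM in Ensure fasted 2, 34.7 in HFD fasted 24, 15.6 in Ensure fasted 5 and 11.1 in HFD fed 21, but only at 3.37 in HFD fasted 26 and 3.41 in Ensure fed 16. Dnah17 likewise stood at 46.7 CPM in Ensure fasted 2 and 20.2 in HFD fasted 24, and at 3.50 in HFD fasted 26 and 3.0 in Ensure fed 16. Both sperm-tail chains were thus low in a pair of libraries that were high in Foxj1. The intermediate chains Dnaic1 and Dnaic2 peaked in Ensure fasted 2 at 8.12 and 12.4 CPM, and Armc4, which docks outer arms on the doublet, peaked in HFD fasted 24 at 5.91 CPM.

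Inner arm heavy chains are Dnah1, Dnah2, Dnah6, Dnah7a, Dnah7b and Dnah10. Dnah6 was at 32.4 to 47.7 CPM in the 5 libraries high in Foxj1 and at most at 9.16 CPM in the other 14. Dnah10 stood at 22.7, 35, 26.1, 18.5 and 34.9 CPM in libraries 21, 24, 26, 16 and 2, Dnah2 at 16.8, 28.6, 15.4, 15.4 and 40.5 CPM, and Dnah1 at 13.6, 24.1, 14.1, 11.0 and 30.4 CPM. Of these chains, Dnah1, Dnah2 and Dnah7a were highest in Ensure fasted 2 and the other 3 in HFD fasted 24. Dnah7a and Dnah7b are near-identical copies, and their highest values were 7.42 and 14 CPM. Reads with several alignments were left out of the counts, so both levels may be too low. The ruler proteins Ccdc39 and Ccdc40, which set the spacing of inner arms and spokes, reached 22.8 and 24.1 CPM in Ensure fasted 2. A gene on the opposite strand covers 34.2% of the exon bases of Ccdc39, and whether counting used the strand is not given in the sources used here, so its level in low libraries (2.36 CPM at the least) is uncertain.

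Radial spoke genes were the least alike of the groups. Rsph4a, a spoke head protein of motile cilia, stood at 19.9, 22.0, 22.9, 20.5 and 18.3 CPM in libraries 21, 24, 26, 16 and 2, and at most at 4.23 CPM elsewhere. Rsph1, another head protein, stood at 14.4, 24.8, 13.1, 8.01 and 48.8 CPM in the same libraries, and at 10.6 CPM in Ensure fasted 5. Rsph6a, the spoke head protein of sperm, stood at 11.8 CPM in Ensure fasted 2, 4.56 in HFD fasted 24 and 2.15 in Ensure fasted 5, and at 0.155 and 0.171 CPM, or 3 and 4 counts, in Ensure fed 16 and HFD fasted 26. The last 2 values are at the level of a few counts.

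Rsph3a and Rsph3b, near-identical copies whose levels may be too low for the same reason, ran at 6.46 to 13.2 and 4.93 to 9.29 CPM over all 19 libraries. They did not share the split: Pearson r with Foxj1 on the log2(CPM + 0.5) scale was 0.11 for Rsph3a and 0.06 for Rsph3b. Among the others, Rsph9 peaked at 7.77 CPM in Ensure fasted 2, next to 7.40 in Ensure fasted 5, and Rsph14 did not pass 2.39 CPM.

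Central pair genes include Hydin, a very large protein of the central pair, and Spag6, Spag16 and Spag17. Hydin stood at 32.6, 45.9, 33.4, 30.2 and 44.9 CPM in libraries 21, 24, 26, 16 and 2, and at 0.767 to 9.45 CPM in the other 14. Spag16 was even across those 5 at 13.7 to 19.2 CPM. Spag17 was uneven, at 28.5 CPM in Ensure fasted 2, 13.3 in HFD fasted 24 and 2.82 to 4.06 in the other 3. Spag6 ran from 8.01 to 23.2 CPM in the 5, and a gene on the opposite strand covers 11.5% of its exon bases.

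Of the tektins, Tekt1 and Tekt2 were present in every library at 0.913 to 21.8 and 1.98 to 15.7 CPM, while Tekt3, Tekt4 and Tekt5 were at 0 counts in 4, 3 and 4 libraries. Tekt4 reached 10.1 CPM in Ensure fasted 2 and 8.17 in HFD fasted 24. Tekt5, a tektin of sperm tails, stood at 9.59 CPM in Ensure fasted 2, 6.91 in HFD fasted 24, 4.55 in Ensure fasted 5, and 0.513 to 0.672 in libraries 21, 26 and 16. A gene on the opposite strand covers 25.7% of the exon bases of Tekt2. Ccdc108, now called Cfap65, reached 83.5 CPM in HFD fasted 24 and 78.8 in Ensure fasted 2, and Rgs22, a regulator of G-protein signalling, 23.5 and 28.4 CPM in the same libraries.

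Between genes, levels were compared per kilobase of GENCODE vM21 exon. By the median of the 5 libraries high in Foxj1, Foxj1 itself was highest at 24.7 CPM per kb, followed by Rsph1 at 10.5 and Ccdc108 at 10.3. Tekt1 had 7.84 and Rsph4a 5.61 CPM per kb. The heavy chains were lower per length, from 3.45 for Dnah6 and 2.90 for Dnah5 to 0.429 for Dnah17 and 0.0981 for Dnah7a.

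Members were set beside Cdh16 and Prm2 to describe whether their RNA varied with tract epithelium or with sperm cells. Cdh16 stood at 41.9, 51.1, 47.5, 42.1 and 54.2 CPM in libraries 21, 24, 26, 16 and 2, so the ratio of Foxj1 to Cdh16 there was 1.21 to 1.45. Prm2 stood at 8.83, 85.8, 25.2, 3.36 and 214 CPM in the same libraries. Cdh16 thus held to a narrow band in the 5, as Foxj1 did, and Prm2 did not. The 5 were picked by their levels of Foxj1 and Cdh16 and not of Prm2, so nothing is read from this contrast.

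Over 19 libraries, the median Pearson r of the 35 members on the log2(CPM + 0.5) scale was 0.89 with Cdh16 and 0.73 with Prm2. Of the members, 25 had the higher r with Cdh16 and 10 with Prm2. The 10 include Rsph3a (0.18 with Cdh16 and 0.50 with Prm2) and Rsph3b (0.10 and 0.44), which did not share the split. They also include Dnah7a, where the 2 values were close (0.80 and 0.85). For Foxj1 itself r was 0.98 with Cdh16 and 0.63 with Prm2, and for Dnah11 0.98 and 0.61. For Rsph6a it was 0.63 with Cdh16 and 0.88 with Prm2, for Dnah8 0.71 and 0.89, and for Dnah17 0.60 and 0.82. The points share library and depth, and the 5 libraries high in Foxj1 form a cluster of their own, so these values describe mostly the distance between clusters. Within the 13 libraries with Cdh16 below 30 CPM, the median r was 0.52 with Cdh16 and 0.15 with Prm2. There, Foxj1 kept an r of 0.99 with Cdh16, Dnah11 0.98 and Dnah9 0.98, whereas Rsph6a had an r of 0.90 and Dnah8 0.83 with Prm2. The values with Prm2 lean on Ensure fed 10, the highest of the 13 in Prm2, Rsph6a and Dnah8 (595, 12 and 76 counts). Elsewhere among the 13, Rsph6a had 0 to 3 counts. By Spearman's rho, which uses ranks alone, Rsph6a and Dnah8 both had 0.54 with Prm2. Foxj1, Dnah11 and Dnah9 had a rho of 0.88, 0.79 and 0.76 with Cdh16. Without the 2 libraries farthest from the median, the median r was 0.85 with Cdh16 and 0.54 with Prm2.

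**Figure D2:**
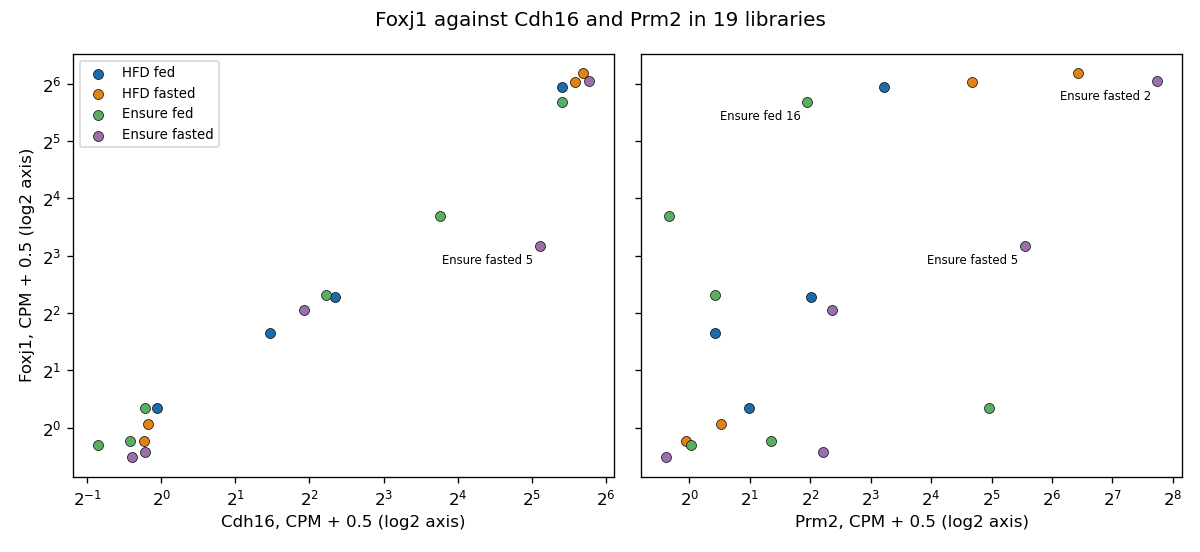
Foxj1 against Cdh16 (left) and against Prm2 (right) in 19 libraries, all axes CPM + 0.5 on a log2 axis, points coloured by group. On the left the 5 libraries high in Foxj1 sit together and Ensure fasted 5 lies to the right of the others with a ratio of 0.249; on the right the same 5 spread from 3.36 to 214 CPM of Prm2.

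Ensure fasted 5 was the exception among libraries with Cdh16. It had 34.1 CPM of Cdh16 but 8.50 of Foxj1, a ratio of 0.249, compared with 0.959 in Ensure fed 1. The same library had 152 CPM of Pax8, a transcription factor of tract and kidney epithelium, compared with 12.4 to 23.6 CPM in the 5 libraries high in Foxj1, and 8391 CPM of Crisp1, a secreted epididymal protein, compared with 8.74 to 405 CPM. Its summed members, 206 CPM, were the highest of the 14 libraries low in Foxj1, and Dnah8 at 15.6 CPM, Rsph3a at 12.3 and Ccdc108 at 11.3 were its highest members.

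Libraries high in Foxj1 were also compared with each other, Ensure fasted 2 with Ensure fed 16, and HFD fasted 24 with 26, where the first of each pair had more Prm2. These pairs and the limits used here were chosen after the values were seen, and each ratio compares 2 libraries, with a 95% interval for counting error only. Between Ensure fasted 2 and Ensure fed 16 the ratio was 1.29 (1.18 to 1.41) for Foxj1, 0.855 (0.769 to 0.951) for Dnah5, 24.7 (19.2 to 31.6) for Dnah8 and 75.8 (24.2 to 237) for Rsph6a, beside 63.8 (49.9 to 81.5) for Prm2. Between HFD fasted 24 and 26 it was 1.11 (1.04 to 1.2) for Foxj1, 1.15 (1.06 to 1.24) for Dnah5, 10.3 (8.16 to 13) for Dnah8 and 26.7 (9.84 to 72.5) for Rsph6a, beside 3.41 (3.11 to 3.74) for Prm2. A set of 7 members had a ratio over 5 in the first pair and over 2 in the second: Dnah17, Dnah7a, Dnah8, Rsph6a, Spag17, Tekt3 and Tekt5. Of these, Dnah8, Dnah17, Rsph6a and Tekt5 are named above as sperm-tail proteins, though the sperm tail shares other members with motile cilia. Tekt2 (3.37 and 2.03), Tekt4 (4.01 and 2.30) and Rgs22 (2.82 and 2.07) were over 2 in both pairs but under 5 in the first. Another 18 members were under 2 in both pairs, among them Dnah5, Dnah6, Dnah9, Dnah11, Rsph4a, Spag16, Hydin, Ccdc39 and Ccdc40. The median ratio over the 35 members was 1.89 in the first pair and 1.47 in the second. The remaining library, HFD fed 21, did not follow Prm2: relative to HFD fasted 26 it had a ratio of 0.351 (0.300 to 0.410) for Prm2, but 3.30 (2.57 to 4.25) for Dnah8, 1.85 (1.41 to 2.41) for Dnah17 and 7.76 (2.75 to 21.9) for Rsph6a. In that pair Foxj1 had a ratio of 0.938 (0.873 to 1.01) and Tekt5 of 1.21 (0.568 to 2.59).

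**Figure D3:**
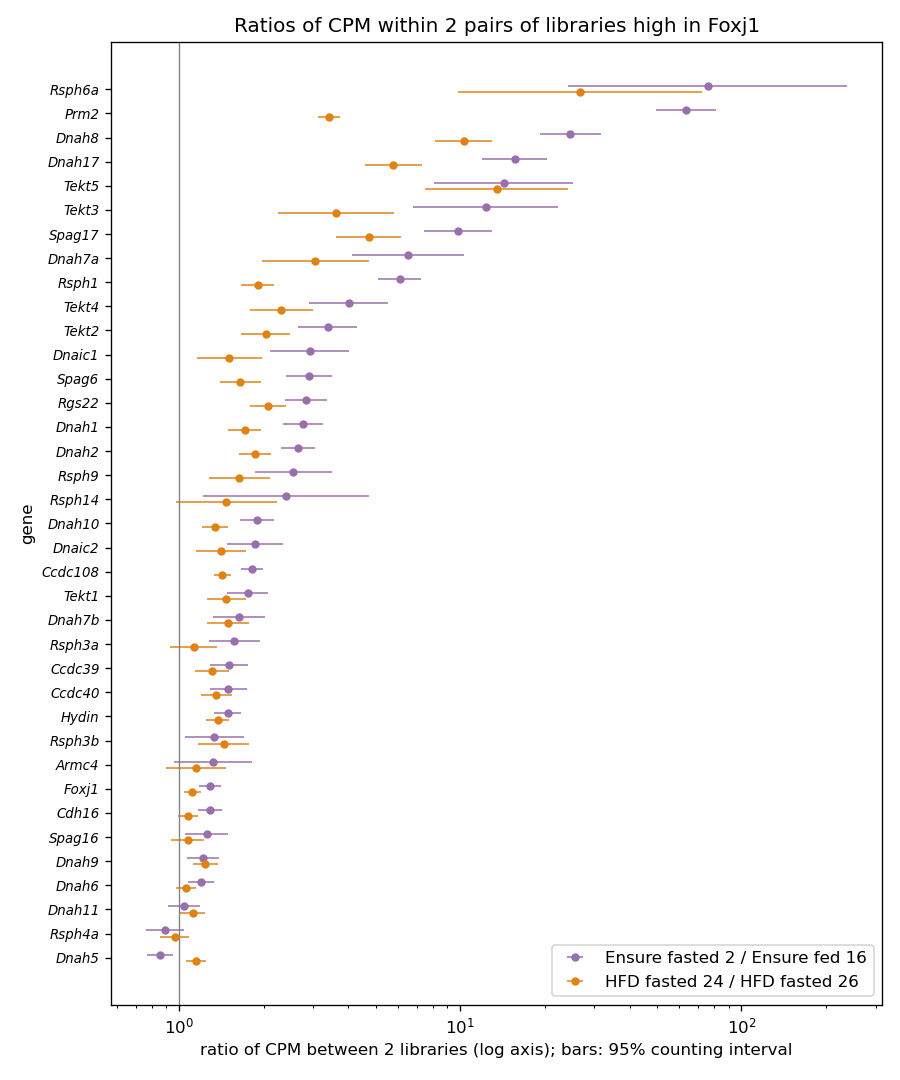
Ratio of CPM (log axis) between Ensure fasted 2 and Ensure fed 16 and between HFD fasted 24 and HFD fasted 26, for each member, Cdh16 and Prm2, with bars for the 95% counting interval. Rsph6a, Dnah8, Dnah17 and Tekt5 lie far to the right in both pairs, and Foxj1, Dnah5, Dnah11 and Rsph4a lie near 1.

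Genes of spermatocytes and spermatogonia were listed as markers of earlier germ cells, and 10 of the 13 were highest in Ensure fasted 2. Among these 10, Mael and Piwil1, which guard the germline genome in developing sperm cells, had the highest peaks, at 41.3 and 31.3 CPM in Ensure fasted 2, and stood at 23.1 and 16.2 CPM in HFD fasted 24 and at 2.01 and 0.342 in HFD fasted 26. The most abundant genes of the list did not share this. Zbtb16 was highest in Ensure fasted 7, and Sycp3 stood at 26.0 and 18.4 CPM in Ensure fasted 2 and 5 and at 36.1 CPM or more elsewhere. The summed level of the list was 271 CPM in Ensure fasted 2 and 270.5 in Ensure fasted 7. HFD fed 21, which had less Prm2 than HFD fasted 26, had more counts of most genes of this list. Mael, Piwil1 and Ddx4 had 127, 103 and 139 counts in HFD fed 21 and 47, 8 and 24 in HFD fasted 26. Sycp3 (1369 and 1469) and Meiob (36 and 40) went the other way. The part of these genes' cells in the members' values was not tested. In Ensure fasting 3 of 11 tested were called higher, Dazl, Ddx4 and Zbtb16, and 1 lower, Sycp3, beside 20.3% of all genes called. The summed level of 30 sperm and spermatid genes was 1694 CPM in Ensure fasted 2, 839 in HFD fasted 24, 478 in Ensure fasted 5, 250 in Ensure fed 10 and 235 in HFD fasted 26. Ensure fed 10, with 30.5 CPM of Prm2, had 0.770 CPM of Foxj1.

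Fasting in HFD mice was compared first, by edgeR's quasi-likelihood test in a fit of all 19 libraries with Benjamini-Hochberg adjustment. No member of 35 passed an adjusted p of 0.05, where 1.22% of all genes tested did (195 of 16015). No member had an unadjusted p under 0.05 in this comparison either. Foxj1 differed by a log2 fold change of 1.01 (SE 1.82, edgeR adjusted p = 0.802), which is smaller than its error. The median over members was 1.13, compared with 0.06 over all genes tested, and 33 of 35 values were above 0. These medians rest on HFD fasted 24 and 26, 2 of 4 fasted libraries, beside HFD fed 21, 1 of 4 fed libraries. Cdh16 differed by 1.01 (SE 1.82) and Prm2 by 2.93 (SE 1.77) in the same fit, neither of them called. Their part in the members' values was not tested. All HFD libraries share sequencing lane 7, so lane does not differ within this comparison. With limma voom and sample quality weights, which give libraries far from their group less weight, 13 members were called higher, beside 7.32% of all genes called higher by the same tool.

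In Ensure mice, 1 member rose with fasting at an adjusted p of 0.05 by edgeR's test, beside 20.3% of all genes tested (3255 of 16015) and 10.6% called higher, and 5 members had an unadjusted p under 0.05. This was Dnah8, by a log2 fold change of 3.24 (SE 1.11, edgeR adjusted p = 0.0480). Its levels were 84.1, 15.6, 1.63, 1.32 and 2.44 CPM in Ensure fasted 2, 5, 7, 8 and 17, and 1.33 to 3.90 CPM with a median of 1.59 in the 6 fed libraries. The groups overlapped, and the 2 fasted libraries above all fed ones were those with the most Prm2 of the group, 214 and 46.2 CPM. Without Ensure fasted 2 the fold change of Dnah8 was 1.22 (edgeR adjusted p = 0.407), and without the 6 libraries with Cdh16 above 30 CPM it was -0.16 (edgeR adjusted p = 0.817). With each of the 19 libraries left out in turn the call held in 6 fits, those without HFD fed 21, HFD fasted 24 or 28, or Ensure fasted 7, 8 or 17, and ended in 13, at edgeR adjusted p = 0.0515 to 0.407. Lanes 5 and 6 hold unequal shares of the groups. In lane 5 Dnah8 stood at 1.47 CPM in the fed library 1 and at 84.1, 15.6, 1.63 and 1.32 in the 4 fasted ones, and in lane 6 at 1.64, 3.90, 1.33 and 3.41 CPM in the fed libraries 9, 10, 12 and 16 and at 2.44 in the fasted library 17. With lane as a term the fold change was 1.99 and the call ended (edgeR adjusted p = 0.738).

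The other 4 members with an unadjusted p under 0.05 were Dnah17, Rsph6a, Tekt5 and Spag17, with log2 fold changes of 2.03 (SE 0.72), 4.31 (SE 1.67), 3.81 (SE 1.57) and 2.61 (SE 1.24) that did not pass the adjustment. DESeq2 called Dnah17, Dnah8, Rsph6a and Tekt5 higher, beside 14.8% of all genes called higher. Foxj1 differed by 0.43 (SE 1.56), Dnah5 by 0.01 and Rsph4a by -0.02. The median over members was 0.92, compared with 0.11 over all genes tested. Of 30 listed sperm and spermatid genes, 27 were tested and 2, Catsper2 and Tssk6, were called higher in the same contrast, beside 10.6% of all genes. The 8 listed smooth muscle genes were all called higher, and their summed level was 8483 CPM in Ensure fasted 5 and 544 to 1082 CPM in the other Ensure libraries. The part of either list in the members' values was not tested.

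The response to fasting did not pass the test of a difference between diets for any member, where 0% of all genes tested passed, and no member had an unadjusted p under 0.05. Comparing Ensure with HFD in fed mice, 0 of 35 members were called, beside 4.26% of all genes, with no unadjusted p under 0.05. In fasted mice 0 of 35 were called, beside 2.82%, and 1 member, Rsph3a, had an unadjusted p under 0.05, with a log2 fold change of 0.50 (SE 0.15, edgeR adjusted p = 0.0807). Voom with quality weights called Tekt1 lower in the difference of responses and higher in fed Ensure mice, beside 1.84% and 15.1% of all genes called that way, and called 11 members lower in fasted Ensure mice, beside 8.4%. All HFD libraries were in lane 7 and all Ensure libraries but 1 fed library in lanes 5 and 6, so diet and lane cannot be told apart. These comparisons share groups with the fasting contrasts and are no independent results.

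**Figure D4:**
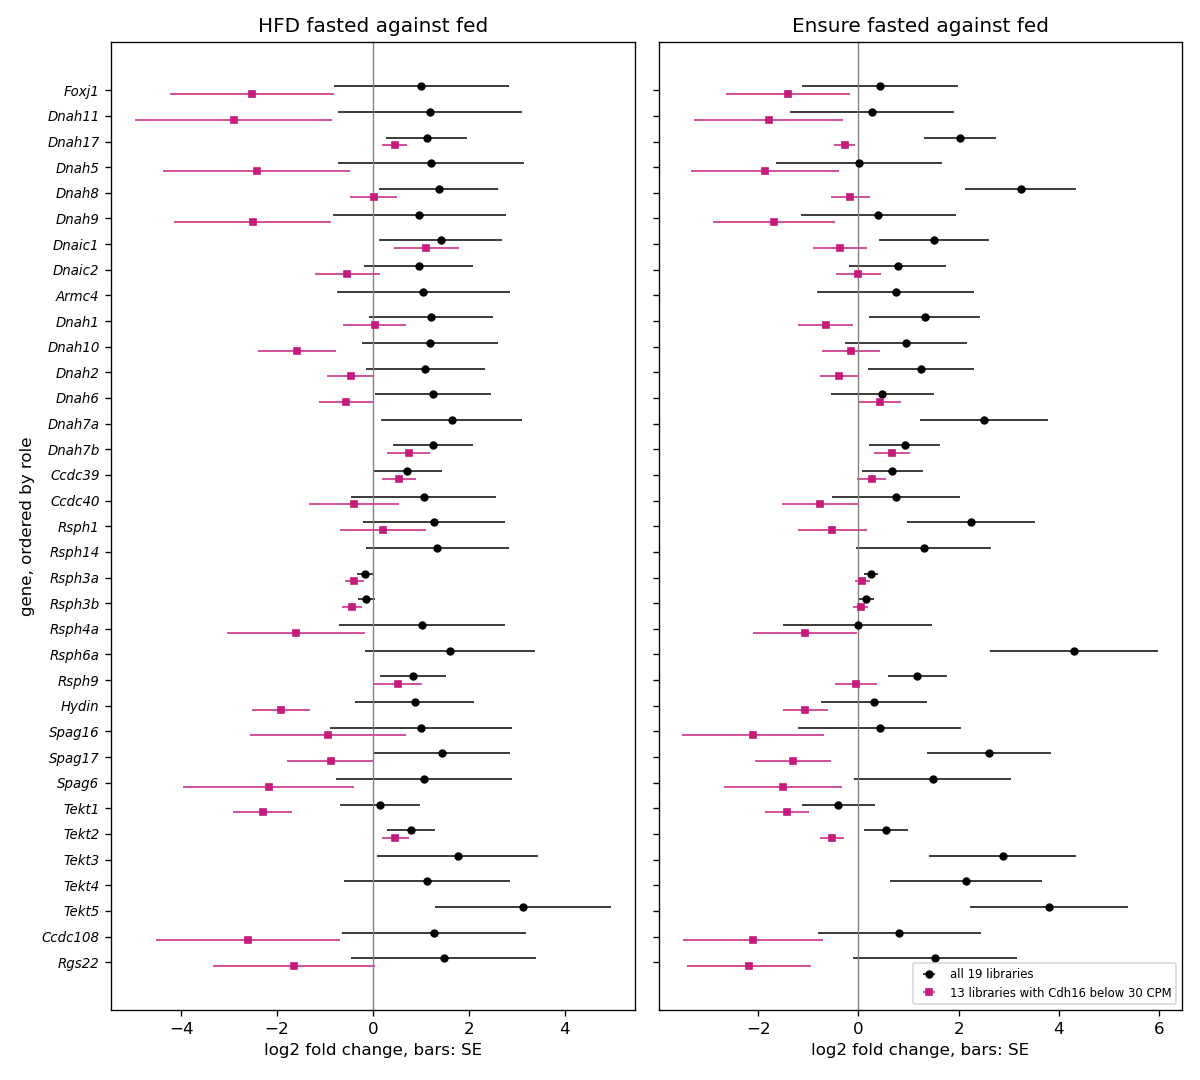
Log2 fold change of fasting for each member, with SE bars, in HFD (left) and Ensure (right) mice, from all 19 libraries (black circles) and from the 13 libraries with Cdh16 below 30 CPM (pink squares, 28 members tested). With all libraries 33 of 35 values lie above 0 on each side; in the 13 libraries 19 of 28 lie below 0 on the left and 22 of 28 on the right.

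Without the 6 libraries with Cdh16 above 30 CPM, most of the members' fold changes were below 0. Of the 35 members, 28 passed the filter there. Their median was -0.54 in HFD and -0.59 in Ensure mice, compared with 0.01 and 0.02 over all genes, and 19 of 28 and 22 of 28 were below 0. Medians were -0.89 and -0.81 for the listed tract epithelium genes and -0.44 and -0.61 for the sperm and spermatid genes. Cdh16 still stood at 87, 9 and 49 counts in HFD fed 22, 25 and 27, and at 7 in both HFD fasted 23 and 28. It stood at 222, 1, 7, 84 and 5 counts in Ensure fed 1, 9, 10, 12 and 18, and at 6, 4 and 65 in Ensure fasted 7, 8 and 17. The part of either list in the members' values was not tested. These fits hold 3 fed and 2 fasted libraries on HFD, and 5 fed and 3 fasted ones on Ensure. One member, Tekt1, was called lower in each comparison, where 13.8% and 16.5% of the 15423 genes tested were called and 5.65% and 8.87% were called lower. In the other 3 comparisons of these libraries 0 of 28 members were called, beside 0.013% of all genes for the difference of responses, 6.87% between fed diets and 17.7% between fasted diets, with 1, 1 and 7 members at an unadjusted p under 0.05.

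Tekt1, a protein of the doublet wall, was also found in libraries low in Foxj1. In Ensure fed tissue it ran from 6.72 to 12.4 CPM with a median of 9.24, also in libraries 9 and 18, where Foxj1 was at 0.308 and 0.348 CPM. In Ensure fasted tissue it stood at 21.8, 4.25, 2.77, 3.49 and 3.96 CPM in libraries 2, 5, 7, 8 and 17, so that 4 of 5 lay below all 6 fed libraries and the other above them. In HFD fed tissue it stood at 12.7, 2.05, 9.59 and 2.23 CPM in libraries 21, 22, 25 and 27, and in HFD fasted tissue at 0.913, 16.4, 11.1 and 0.986 CPM in 23, 24, 26 and 28.

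With all libraries Tekt1 differed by a log2 fold change of 0.15 (SE 0.84) in HFD and -0.40 (SE 0.73) in Ensure mice, neither of them called. Leaving out Ensure fasted 2 alone gave -1.44 in Ensure mice (edgeR adjusted p = 0.183). Without the 6 libraries it differed by -2.30 (SE 0.62, edgeR adjusted p = 0.0328) in HFD and by -1.42 (SE 0.44, edgeR adjusted p = 0.0454) in Ensure mice. With lane as a term they ended, at edgeR adjusted p = 0.0689 and 0.156. When each of the 13 libraries was left out in turn, the HFD call ended without HFD fasted 23 or 28 and its fold change shrank to -1.18 without HFD fed 25, and the Ensure call ended in 8 of 13 fits, without Ensure fed 1, 9, 10, 12 or 18 or without Ensure fasted 7, 8 or 17. Prm2 and Cdh16 were at most 30.5 and 13 CPM in these 13 libraries.

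**Figure D5:**
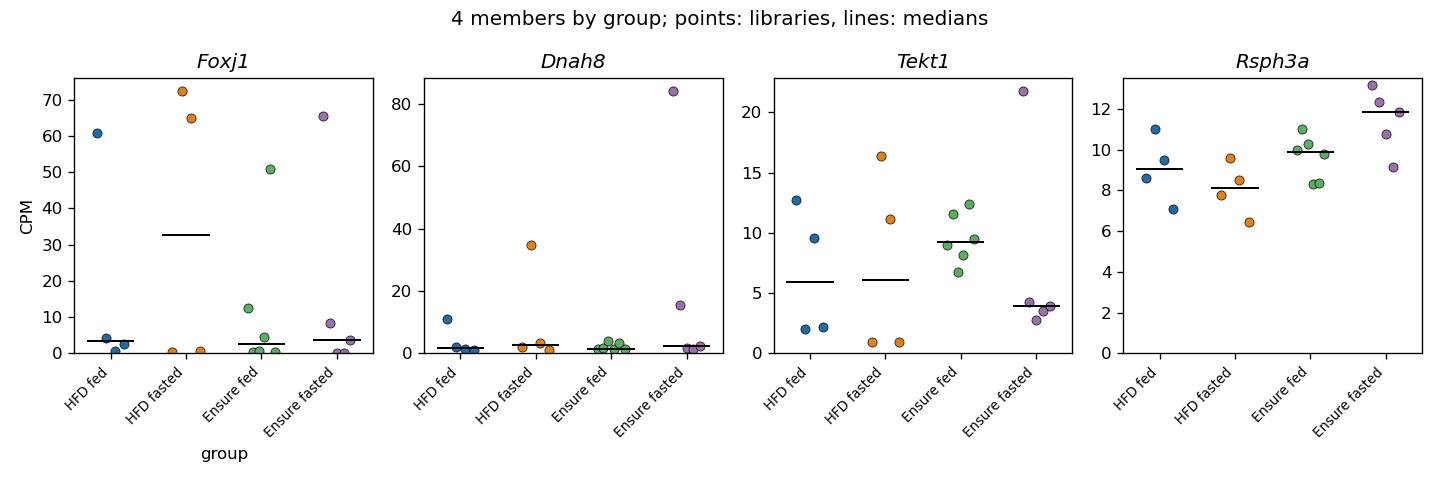
CPM (linear axes from 0) of Foxj1, Dnah8, Tekt1 and Rsph3a by group, with a point per library and a line at the group median. Foxj1 has 1 high library in each group but HFD fasted, which has 2, and Dnah8 has no high library in Ensure fed (1.33 to 3.90 CPM); the Ensure fed points of Tekt1 lie between 6.72 and 12.4 CPM above 4 of 5 fasted points, and Rsph3a stays between 6.46 and 13.2 CPM.

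Genes outside the set were ranked by how closely their level followed Foxj1 over the 19 libraries. Among 13786 genes with a mean of at least 1 CPM, the 10 highest by Spearman's rho were Calml3 (0.99), B4galnt3 (0.98), Cfap44 (0.98), Ccdc158 (0.97), Dnajc22 (0.97), Tm4sf4 (0.97), Adcy8 (0.97), Mapk15 (0.97), Tmem212 (0.97) and Fermt1 (0.96). Cfap44 is a cilium and flagellum protein and Calml3 a calmodulin-like protein of epithelia. A rho above 0.8 was found for 472 of the 13786 genes (3.42%).

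Other genes of the pathway were followed by list. The 10 regulators of multiciliated cells had a median rho of 0.78 with Foxj1, and Trp73 and Gmnc, which act above Foxj1, reached 5.48 and 6.28 CPM at the most. The most abundant of that list, Rfx2, Rfx3, Myb and Ccdc67, ran from 5.36 to 38.3, 6.05 to 17.1, 0.447 to 10.5 and 0.383 to 13.7 CPM. Mcidas was at or below 0.258 CPM everywhere. None of the 8 tested regulators was called in either fasting comparison, beside 1.22% of all genes in HFD and 20.3% in Ensure mice. Dynein assembly and docking genes (16 in the files) had a median rho of 0.78, and none of 15 tested was called, beside the same shares. The most abundant were Dnal1, Wdr78, Dnaaf3 and Ccdc114, with means of 21.1, 9.00, 6.87 and 5.40 CPM. Nothing is read from these counts of 0.

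The list of 42 other axoneme genes had a median rho of 0.84, with 23 above 0.8. In HFD mice 1 of them fell with fasting, Tuba1a, an alpha-tubulin made in many cells, by 1.65 on the log2 scale (SE 0.33, edgeR adjusted p = 0.0229). This was 1 of 42, beside 1.22% of all genes called. In Ensure mice 3 rose (Ak8, Morn2 and Ropn1l) and 2 fell (Tuba1a and Tubb4b, both tubulins), 5 of 42 beside 20.3% of all genes called. Tuba1a had the highest mean of the list, 700 CPM, ahead of Tubb4b at 109, Tppp3 at 51.6 and Cetn2 at 24.5. Ropn1l, a protein of the sperm tail and of cilia, had a fold change of 1.94 (SE 0.64, edgeR adjusted p = 0.0405) and stood at 45.9 CPM in Ensure fasted 2, the library highest in Prm2.

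Intraflagellar transport and BBSome genes serve primary cilia too, and among the cilium lists had the lowest median rho with Foxj1, 0.45 over 24 genes, with 1 above 0.8. In HFD mice 0 of 24 were called, beside 1.22% of all genes. In Ensure mice 4 rose, Bbs2, Bbs9, Ift140 and Ift172, and 2 fell, Ift20 and Kif3b, 6 of 24 beside 20.3% of all genes called. Kif3b, Ift172, Ift52 and Ift140 were the most abundant, with means of 67.7, 64.5, 43.6 and 37.0 CPM. Bbs2 had a log2 fold change of 0.96 (SE 0.18, edgeR adjusted p = 0.0016) and Bbs9 of 0.57 (SE 0.13, edgeR adjusted p = 0.0050). Among Ensure fasted libraries Bbs2 was highest in Ensure fasted 5, at 502 counts beside 211 to 293 in the others. In the 13 libraries low in Cdh16, which leave Ensure fasted 5 out, 7 of 24 were called higher and 0 lower in Ensure mice. This stood beside 7.63% and 8.87% of all genes, and Bbs2, Bbs9, Ift140 and Ift172 were again among the 7. Lanes hold unequal shares of the Ensure groups in both fits, and no value with lane as a term is given for these genes.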

How the data were processed

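Poly-A RNA of whole perigonadal fat was sequenced on an Illumina HiSeq2000 after TruSeq preparation, per the labels' protocols. The deposited values are raw read counts per gene from the authors; bcl2fastq 1.8.4, TopHat2 2.1, HTSeq 0.6.1 and mm9 are named in the submitters' processing notes. For the annotation and the strand setting, nothing was found in the labels or files. The 5 HTSeq summary lines were left out of library sizes; reads in no feature made up 13.0 to 17.3% of each file, ambiguous reads 0.695 to 0.893% and reads with several alignments 20.7 to 27.7%.

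Counts were fitted with edgeR 4.0.16 (R 4.3.3): filterByExpr at a minimum count of 10, TMM scaling, a quasi-likelihood F test on 4 groups in 1 fit, and Benjamini-Hochberg adjustment over all genes tested, called at 0.05. CPM used the kept genes' library sizes times the TMM factors. Correlations used log2(CPM + 0.5) in scipy 1.17.1. Alternatives included DESeq2 1.42.0 and limma 3.58.1. The fits were also run on simulated counts with known changes. The outcome is not given here, and nothing is read from it. Each SE was derived from the fold change and its F value. Exon lengths came from GENCODE vM21, and promoters from RefSeq on GRCm38.p6, another build than the files' mm9.

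Members, gene lists and tests were chosen with earlier results of these data known. Members with a mean of at least 1 CPM or a call were named, with up to 4 of the most abundant genes per list; several other genes were named after their values were seen. Lists for testis, tract and other cells were also scored by rho with Foxj1: medians were 0.59 for sperm and spermatid, 0.49 for spermatocyte and spermatogonium, 0.65 for Sertoli and Leydig, 0.86 for tract epithelium, 0.35 for epididymis secretory, -0.11 for seminal vesicle and prostate, 0.27 for mesothelial, -0.17 for adipocyte and 0.49 for smooth muscle genes.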

Additional observations from a re-analysis of the deposited data

Results flagged for a closer look

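In each group of 4 to 6 libraries the highest or lowest CPM of each member, Cdh16 and Prm2 was checked for a gap to its nearest neighbour that was large for the group's whole range. Of 148 sets of values (37 genes in 4 groups), 90 held such a library, high in all 90. The limit used flags about 1 in 20 sets of unselected values by chance. The members were proposed for varying together over these same libraries, so the 90 cannot be read against that rate. The genes vary together, so the sets are not independent. On the log2(CPM + 0.5) scale, tried after the number 90 was seen, 17 of 148 sets held such a library. The causes were not tested.

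HFD fed 21 stood above its group in 29 genes. In CPM, these were Armc4 at 4.56, Ccdc108 at 53.2, Ccdc39 at 16.5, Ccdc40 at 17, Dnah1 at 13.6, Dnah10 at 22.7, Dnah11 at 24, Dnah2 at 16.8, Dnah5 at 38.6 and Dnah6 at 32.4. Further genes there were Dnah7a at 1.2, Dnah8 at 11.1, Dnah9 at 27.8, Dnaic1 at 3.27, Dnaic2 at 6.71, Foxj1 at 60.8, Hydin at 32.6, Rgs22 at 11.5, Rsph1 at 14.4 and Rsph14 at 1.37. The rest were Rsph4a at 19.9, Rsph6a at 1.33, Spag16 at 16.8, Spag17 at 4.06, Spag6 at 10.6, Tekt3 at 1.04, Tekt4 at 4.81, Tekt5 at 0.622 and Cdh16 at 41.9.

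Ensure fed 16 stood above its group in 25 genes. In CPM, these were Armc4 at 4.03, Ccdc108 at 43.3, Ccdc39 at 15.2, Ccdc40 at 16.1, Dnah1 at 11, Dnah10 at 18.5, Dnah11 at 26.4, Dnah2 at 15.4, Dnah5 at 45.3 and Dnah6 at 36.6. Further genes there were Dnah7a at 1.14, Dnah7b at 8.12, Dnah9 at 24.3, Dnaic1 at 2.79, Dnaic2 at 6.67, Foxj1 at 50.9, Hydin at 30.2, Rgs22 at 10.1, Rsph1 at 8.01 and Rsph14 at 0.672. The rest were Rsph4a at 20.5, Spag16 at 13.7, Spag6 at 8.01, Tekt4 at 2.53 and Cdh16 at 42.1.

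Ensure fasted 2 stood above its group in 30 genes. In CPM, these were Armc4 at 5.32, Ccdc108 at 78.8, Ccdc39 at 22.8, Ccdc40 at 24.1, Dnah1 at 30.4, Dnah10 at 34.9, Dnah11 at 27.4, Dnah17 at 46.7, Dnah2 at 40.5 and Dnah5 at 38.8. Further genes there were Dnah6 at 43.7, Dnah7a at 7.42, Dnah7b at 13.2, Dnah8 at 84.1, Dnah9 at 29.5, Dnaic2 at 12.4, Foxj1 at 65.6, Hydin at 44.9, Rgs22 at 28.4 and Rsph1 at 48.8. The rest were Rsph14 at 1.61, Rsph4a at 18.3, Rsph6a at 11.8, Spag16 at 17.2, Spag17 at 28.5, Spag6 at 23.2, Tekt1 at 21.8, Tekt2 at 15.7, Tekt3 at 7.63 and Prm2 at 214.

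HFD fasted 24 stood above its group in 4 genes. In CPM, these were Dnah17 at 20.2, Dnah8 at 34.7, Rsph6a at 4.56 and Tekt5 at 6.91.

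Ensure fed 10 stood above its group in 2 genes. In CPM, these were Rsph6a at 0.616 and Prm2 at 30.5.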

How the results depend on the processing

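Counts of called members depended on the tool and on single libraries. In Ensure fasting 10.6% of all genes were called higher in the main fit and 14.8% by DESeq2. Other shares stand with the results above. Where no share of all genes is given, a count shows only how the members' calls moved, and nothing else is read from it. In Ensure mice fasting called 1 member in the main fit, 2 with library size alone or a stricter filter (Dnah17 and Dnah8), 4 with DESeq2 (Dnah17, Dnah8, Rsph6a and Tekt5), and 0 with no filter on low counts, voom with quality weights, lane as a term, or without Ensure fasted 2 and HFD fasted 24. Voom with quality weights called 13 members in HFD fasting, 1 in the difference of responses, 1 between fed diets and 11 between fasted diets, where the main fit called 0; DESeq2 called 1 between fasted diets, Rsph3a. Without the 6 libraries high in Cdh16, HFD fasting called 1 member, and Dnah8 in Ensure (-0.16) and Tekt1 in HFD (-2.30) changed sign. Lane as a term in those 13 libraries, added after seeing the data, called 0 in both fasting comparisons. With each library left out in turn, the main counts ran from 0 to 0 in HFD fasting, the difference and fed diets, from 0 to 2 in Ensure fasting (Rsph6a in place of Dnah8 without Ensure fed 10) and from 0 to 1 between fasted diets (1 without HFD fasted 24). Dnah8 ran from 1.22 to 3.57, and its call ended in 13 of 19 omissions. Foxj1 ran from -1.87 to 2.08 in Ensure and 0.354 to 3.80 in HFD fasting. Among the 13 libraries, counts with 1 left out (also added) ran from 0 to 2 in HFD fasting, 0 to 1 in Ensure fasting, the difference and fed diets, and 0 to 3 between fasted diets; over the 26 such fasting results Tekt1 was called in 16 and Hydin in 4.

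The median r with Cdh16 moved from 0.89 to 0.52 in the libraries with Cdh16 below 30 CPM alone, and ran from 0.872 to 0.893 with 1 library left out. The median r with Prm2 moved from 0.73 to 0.15 in those libraries and to 0.54 without Ensure fasted 2 and HFD fasted 24, which are also the 2 farthest from the median, and ran from 0.654 to 0.794 with 1 left out. Other pseudocounts and scaling moved either by less than the spread over members. The difference of responses needs all groups, so no fit of compared groups alone was made for it. Members at a few counts, such as Rsph6a and Rsph14, have no detectable differences below the 3-count level. No paired analysis was possible because the groups compared share no replicate numbers.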
